A study of Mus musculus with 9 samples.

Results

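*Tcf4*, *Tcf3* and *Tcf12*, the E-protein genes, were followed across cell classes and genotypes in neocortices of mouse embryos at E18.5. They are 3 of the 17487 genes listed in the deposited matrices, were chosen by name, and are listed in all 9 libraries. Each library came from 1 animal and was made with the Chromium 3′ v2 kit, which tags every caught transcript so that its copies count once, as 1 UMI (unique molecular identifier). In all, 5 libraries are labelled WT (WT1 to WT5) and 4 are labelled KO (KO1, KO2, KO4 and KO5). The embryos were littermates from matings of *Tcf4* haploinsufficient mice, and the labels give the strain of both genotypes as Tcf4ex4WT/lacZ. In KO animals both alleles carry a lacZ and neomycin cassette before exon 4, in the germ line and so in every cell type. This mutation removes the long isoform TCF4B, while shorter ones such as TCF4A persist. Reads start at the 3′ end, which the isoforms share, so a *Tcf4* UMI does not tell them apart, and a KO library can still hold *Tcf4* UMIs from the shorter isoforms.

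E-proteins are basic helix-loop-helix (bHLH) transcription factors that most cells contain. They bind a short DNA motif, the E-box, as pairs with each other or with cell type specific bHLH proteins such as Neurog2 and the Neurod proteins. Id proteins bind E-proteins but lack the DNA-binding region, and so hold them off DNA. In the developing cortex E-proteins take part in the step from progenitor to neuron, and loss of 1 copy of *TCF4* in humans causes Pitt-Hopkins syndrome, a disorder of brain development.

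On GRCm38, *Tcf3* (ENSMUSG00000020167) spans 80409514 to 80433647 of chromosome 10, and *Tcf12* (ENSMUSG00000032228) spans 71842688 to 72111871 of chromosome 9, both on the minus strand. *Tcf3* and *Tcf12* were both lower in cycling cells of 2 KO libraries, so the promoters of this pair are shown, 300 bases around a start site in RefSeq (GRCm38.p6), read 5′ to 3′ on the minus strand. They are chr10:80433586-80433885 for *Tcf3* and, of 3 entries for *Tcf12*, chr9:72111770-72112069. Capitals mark the E-box CANNTG, which reads alike on both strands.
Tcf3: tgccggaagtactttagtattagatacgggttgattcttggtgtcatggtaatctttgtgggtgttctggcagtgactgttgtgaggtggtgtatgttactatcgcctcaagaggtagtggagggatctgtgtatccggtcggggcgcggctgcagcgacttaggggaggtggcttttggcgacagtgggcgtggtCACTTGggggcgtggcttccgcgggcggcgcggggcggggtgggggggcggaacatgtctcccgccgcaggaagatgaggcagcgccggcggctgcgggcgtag
Tcf12: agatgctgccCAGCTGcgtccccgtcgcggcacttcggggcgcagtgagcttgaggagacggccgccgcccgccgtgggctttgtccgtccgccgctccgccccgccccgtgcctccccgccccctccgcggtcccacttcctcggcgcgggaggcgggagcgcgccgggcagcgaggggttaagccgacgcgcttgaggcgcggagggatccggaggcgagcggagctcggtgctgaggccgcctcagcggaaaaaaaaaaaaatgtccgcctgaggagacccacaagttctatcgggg
Each of these windows held 1 E-box, CACTTG from base 197 in *Tcf3* and CAGCTG from base 11 in *Tcf12*. Of 32851 mouse promoters of the same length in RefSeq, 72.3% held at least 1 match, with a median of 1.

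*Tcf4* (ENSMUSG00000053477) spans positions 69343356 to 69689079 of chromosome 18 on the plus strand. After filtering, 126 to 6173 cells per library and 19671 in all were kept, with a median of 2217.5 to 4359 UMIs per cell. Libraries were compared in 2 sets. The set of libraries with more than 500 cells holds WT2, WT3, WT4, WT5, KO4 and KO5. The set of the study lacks WT5, which the study left out for its low *Tcf4*, so *Tcf4* is tested only in the first set and described in the second. The p-values of all other genes in the second set take no account of that choice either, and are conditional on it. The levels of *Tcf4* in the libraries labelled WT1, WT5 and KO1 go against their labels, and KO5 was the only male library.

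KO4, KO5 or both enter every comparison of genotypes, and with WT5 they stand apart from the other libraries measured in neuronal transcripts in other cells. The medians of WT5, KO4 and KO5, 2226, 2290 and 2217.5 UMIs per kept cell, were the lowest. They were close to the 2338 and 2478.5 of WT1 and WT2 and further from the 3636 and 4359 of WT3 and WT4. The summed level of 6 neuronal genes (*Stmn2*, *Mapt*, *Tubb3*, *Dcx*, *Neurod2* and *Neurod6*) in endothelial cells was 11.9% and 35.8% of that in upper layer neurons in WT2 and WT4, but 76.6% in WT5, 80.0% in KO4 and 79.7% in KO5. All 6 genes were detected in these cells of WT5, KO4 and KO5. Cells with more than 1% hemoglobin UMIs, which were left out, made up 0.421% to 4.34% of cells in 7 libraries, 13.9% in KO4 and 40.6% in KO5, and carried 80.8% and 96.3% of the neuronal level of upper layer cells in KO4 and KO5. Their *Tcf4* level of 8.80 UMIs per 10000 in KO4 and 7.74 in KO5 was close to the 9.28 and 7.58 of the kept cells of these libraries, and 86.6% and 81.6% of them held a *Tcf4* UMI.

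Kept cells were sorted into classes by how many markers of a class they held. Of the 19671 cells, 13399 entered a class, and 17.8% to 46.5% of cells per library did not. The separation of the classes differed between classes and libraries. The 20 genes outside the marker lists that led a class in WT4, taken as a check, had a median fold over the other cells of 10.8 and 10.3 in radial glia or astrocytes of WT2 and WT3, 7.16 and 8.14 in cycling cells with *Dlx* genes, 1.90 and 2.17 in upper layer cells, 1.67 and 1.71 in newborn neurons, and 1.30 and 1.84 in deep layer cells. The same genes had medians of 2.53, 3.84 and 2.98 in radial glia or astrocytes of WT5, KO4 and KO5, 1.78, 2.21 and 1.47 in cycling cells with *Dlx* genes, 1.10, 1.21 and 1.07 in upper layer cells, 1.03, 1.38 and 1.03 in newborn neurons, and 1.04, 1.14 and 1.05 in deep layer cells. In *Lhx6* interneurons the medians were 2.78 and 3.31 in WT2 and WT3, and 1.15, 1.35 and 0.980 in WT5, KO4 and KO5. In each of these classes the medians of WT5, KO4 and KO5 were below those of WT2 and WT3. Of upper layer cells, 37.2%, 20.8% and 8.02% in WT2, WT3 and WT4 sat at the lowest marker count allowed. In WT5, KO4 and KO5 these were 51.4%, 47.0% and 58.0%. Cells were sorted at full depth, also where they were thinned afterwards, so thinning does not even out the classes. The order of classes was taken from WT2, WT3 and WT4.

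**Figure D1:**
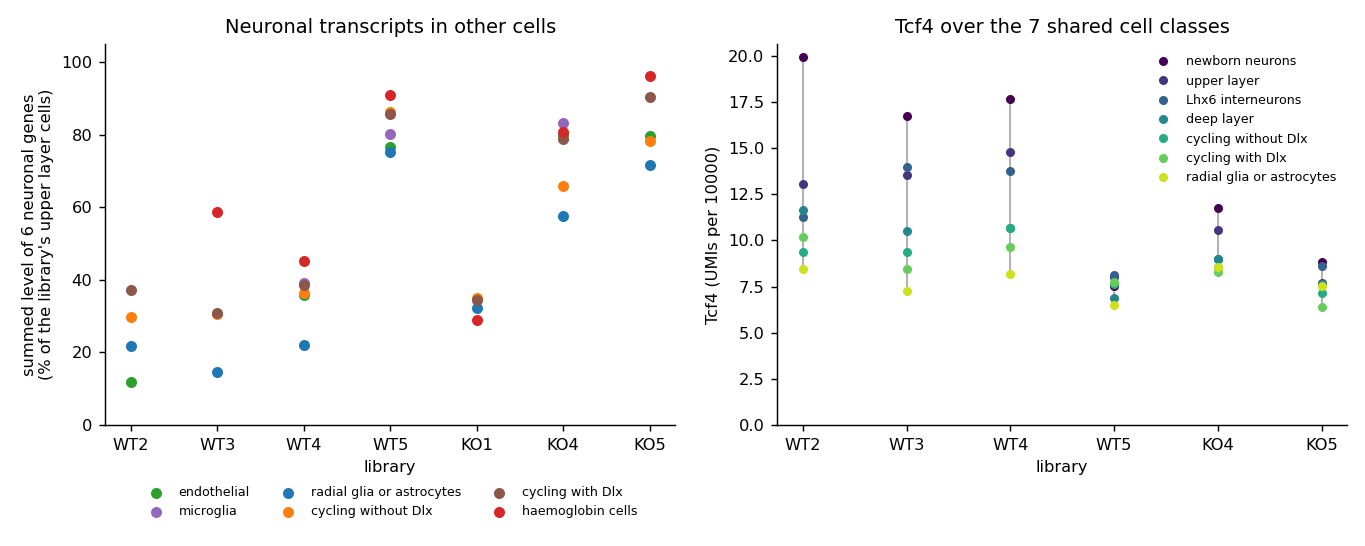
Left, summed level of 6 neuronal genes in other cells, as percent of the upper layer cells of the same library (y axis), by library (x axis); right, *Tcf4* in UMIs per 10000 (y axis) in each of the 7 classes that all 6 libraries hold (points) with its range (gray line). Neuronal transcripts in endothelial cells lie at 76.6% to 80.0% in WT5, KO4 and KO5, and the highest class exceeds the lowest in *Tcf4* by 2.16-fold to 2.37-fold in WT2, WT3 and WT4 but by 1.25-fold to 1.41-fold in WT5, KO4 and KO5.

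*Tcf4* was highest in newborn neurons and caudal interneurons. In newborn neurons the level, as mean UMIs per 10000 UMIs of a cell, was 19.96, 16.8 and 17.6 in WT2, WT3 and WT4, with a mean of 18.1 ± 1.65 (SD, n = 3). Caudal interneurons, which had enough cells in WT4 alone of these libraries, reached 17.9, beside 17.6 in the newborn neurons of that library. Intermediate progenitors, taken as cells with at least 4 of 12 markers such as *Eomes*, followed at 13.7, 14.4 and 16.0. Cells with 4 or more cycling markers went to the cycling classes first, so dividing intermediate progenitors are counted there. Upper layer neurons held 13.1, 13.6 and 14.8, and *Lhx6* interneurons, which migrate in from the ventral forebrain, held 11.3, 13.98 and 13.8. All WT2, WT3 and WT4 values of newborn neurons lay above all values of the classes that follow caudal interneurons.

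Deep layer neurons were lower, with *Tcf4* levels of 11.7, 10.51 and 10.7. Cycling cells without and with *Dlx* genes, the markers of ventral lineages, had means of 9.82 ± 0.748 and 9.43 ± 0.908 (SD, n = 3). Radial glia or astrocytes had 8.44, 7.25 and 8.17. Among cells outside the main cortical lineages, oligodendrocyte lineage cells held 5.13 and 6.35 in WT3 and WT4, endothelial cells 5.63 and 5.29 in WT2 and WT4, and microglia 5.14 in WT4. The lowest levels were those of Cajal-Retzius cells, with 3.76, 3.24 and 3.86, and of striatal neurons, with 2.50 and 3.66 in WT3 and WT4. The means of these 2 neuron classes lay below those of every non-neuronal class. The 6 neuronal genes stood at 11.9% and 35.8% of the upper layer level in endothelial cells of WT2 and WT4 and at 39.2% in microglia of WT4. The part of such transcripts in the *Tcf4* of the non-neuronal classes was not tested.

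*Tcf4* was also the E-protein found in most cells. With each cell thinned to 1800 UMIs, a *Tcf4* UMI was present in 91.3%, 95.3% and 92.9% of newborn neurons of WT2, WT3 and WT4, in 63.9%, 66.7% and 67.8% of radial glia or astrocytes, and in 50%, 36.4% and 41.2% of Cajal-Retzius cells. Thinned shares gave the same lowest classes as the levels. At full depth the shares in WT4 were 99.3%, 86.8% and 85.3%, at median depths of 4076.5, 4570 and 6385.5 UMIs. No class lacked *Tcf4* and could serve as a background.

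**Figure D2:**
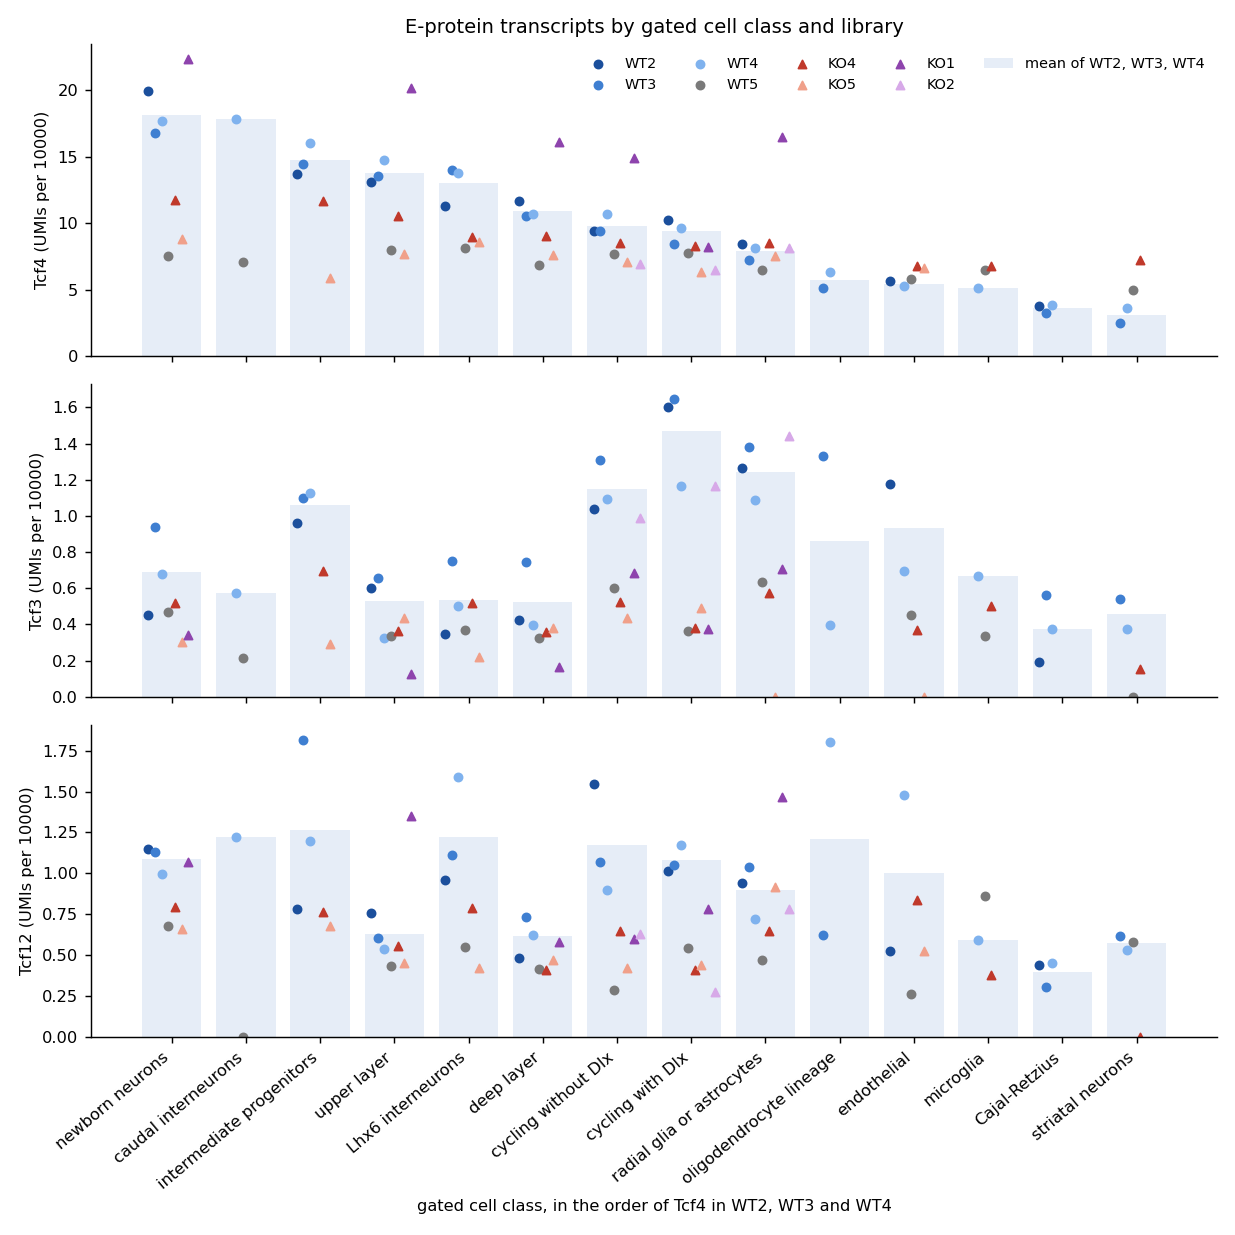
Level of each E-protein in UMIs per 10000 (y axes) by gated class (x axis, in the order of *Tcf4*); bars are means of WT2, WT3 and WT4, points are libraries with at least 10 cells of the class, circles are libraries labelled WT and triangles libraries labelled KO. *Tcf4* falls from 18.1 in newborn neurons to 3.08 in striatal neurons, *Tcf3* peaks at 1.47 in cycling cells with *Dlx* genes, and KO1 lies above the other libraries in *Tcf4* in 5 of its 6 classes.

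Differences between classes were tested within libraries, over all libraries with at least 10 cells of a class. On the log2(level + 1) scale, *Tcf4* in newborn neurons exceeded the mean of the other classes by 0.63 ± 0.38 (SD) and was higher in 7 of 7 libraries. The 2-sided exact sign-flip permutation test gave p = 0.0156, the smallest that 7 libraries allow, and 0.109 after adjustment over 14 classes. Upper layer cells were higher by 0.39 ± 0.24 in 7 of 7 libraries, with the same exact permutation p of 0.0156 and adjusted p of 0.109. *Lhx6* interneurons were higher by 0.33 ± 0.27 in 6 of 6 libraries (exact permutation p = 0.0312, the smallest that 6 allow, adjusted p = 0.109). Endothelial cells were lower in 5 of 5 libraries, by 0.46 ± 0.30 on average, with an exact permutation p of 0.0625, again the smallest possible, and an adjusted p of 0.175. No class passed the adjusted threshold, and the number of libraries allows none of these tests to do so alone. Of 10 pairs of neighbours in the order of *Tcf4* with 2 or more libraries, none passed the exact permutation test (lowest p = 0.0703, cycling cells without against with *Dlx* genes, adjusted p = 0.521), but pairs with 2 libraries cannot go below 0.5. Among these, radial glia or astrocytes exceeded oligodendrocyte lineage cells by 0.37 ± 0.08 (SD) in 2 of 2 libraries, more than the spread, and Cajal-Retzius cells exceeded striatal neurons by 0.17 ± 0.15 in 2 of 2.

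A fit across all genes gave a clearer contrast between upper layer neurons and cycling cells without *Dlx* genes. With limma and the library as a block, over 7 libraries, 736 of 9910 genes (7.43%) were higher in upper layer cells and 1113 (11.2%) lower. *Tcf4* was higher by 0.31 (SE 0.06, adjusted p = 0.00332) and *Tcf3* lower by 0.35 (log2 difference -0.35, SE 0.07, adjusted p = 0.00588). *Tcf12* did not pass the test (log2 difference -0.08, 95% confidence interval -0.32 to 0.17, adjusted p = 0.669). In WT2, WT3 and WT4 alone *Tcf12* was lower too, with a log2 difference of -0.40 (adjusted p = 0.000332). *Tcf4* and *Tcf3* ran in opposite directions between these classes.

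*Tcf3*, which encodes the E2A proteins E12 and E47, was low everywhere and highest in dividing and glial classes. Cycling cells with *Dlx* genes held 1.60, 1.65 and 1.17 UMIs per 10000 in WT2, WT3 and WT4. Radial glia or astrocytes held 1.26, 1.38 and 1.09, cycling cells without *Dlx* genes 1.04, 1.31 and 1.09, and intermediate progenitors 0.960, 1.10 and 1.12. In all 3 libraries these 4 classes exceeded every class of postmitotic cortical neurons, interneurons included. Upper layer, deep layer and *Lhx6* neurons had nearly equal means of 0.528, 0.523 and 0.533, and Cajal-Retzius cells had the lowest, 0.376 ± 0.184 (SD, n = 3). These levels rest on few molecules. In WT2 the value for *Lhx6* interneurons came from 3 UMIs in 23 cells.

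*Tcf12*, which encodes HEB, was also low. Its means in WT2, WT3 and WT4 ran from 1.27 ± 0.521 in intermediate progenitors, 1.22 ± 0.327 in *Lhx6* interneurons and 1.17 ± 0.336 in cycling cells without *Dlx* genes to 0.616 ± 0.126 in deep layer neurons and 0.401 ± 0.0805 in Cajal-Retzius cells (SD, n = 3). Newborn neurons held 1.15, 1.13 and 0.996, above the 0.757, 0.604 and 0.538 of upper layer neurons in each library. Within libraries *Tcf12* was above the mean of the other classes in newborn neurons in 7 of 7 libraries (0.17 ± 0.08) and below it in deep layer cells in 7 of 7 (-0.19 ± 0.13), each with an exact permutation p of 0.0156, the smallest possible, and an adjusted p of 0.109.

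*Tcf4* supplied most E-protein UMIs in every class. A UMI stands for 1 captured transcript end, so these values were not divided by length, and the efficiency with which the ends of different genes are captured was not measured. Over all kept cells *Tcf4* made up 88.9% ± 1.12 of the UMIs of the 3 genes in WT2, WT3 and WT4 (SD, n = 3). Its share was 92.5% ± 1.89 in upper layer cells, 91.4% ± 1.97 in newborn neurons, 87.6% ± 0.356 in *Lhx6* interneurons, 81.6% ± 2.37 in cycling cells without *Dlx* genes, 78.8% ± 2.999 in cycling cells with *Dlx* genes and 78.9% ± 3.51 in radial glia or astrocytes. In KO4 and KO5 the share lay between 85.4% and 92.6% in all 8 classes from newborn neurons to radial glia or astrocytes that both hold. In both cycling classes and in radial glia or astrocytes the shares of KO4 and KO5 were above those of WT2, WT3 and WT4 with no overlap, while in intermediate progenitors they overlapped. The library labelled WT5 lay with KO4 and KO5, at 89.1%, 89.3% and 86.0% in cycling cells without and with *Dlx* genes and in radial glia or astrocytes. Of the small KO libraries, KO1 was at 91.6%, 89.8% and 88.0% and KO2 at 82.7%, 83.6% and 82.9%, the latter nearer to WT2, WT3 and WT4. The neuronal genes in cycling cells without *Dlx* genes stood at 29.8%, 30.7% and 36.4% of the upper layer level in WT2, WT3 and WT4 and at 65.8% and 78.3% in KO4 and KO5, and their part in the shares was not tested.

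**Figure D3:**
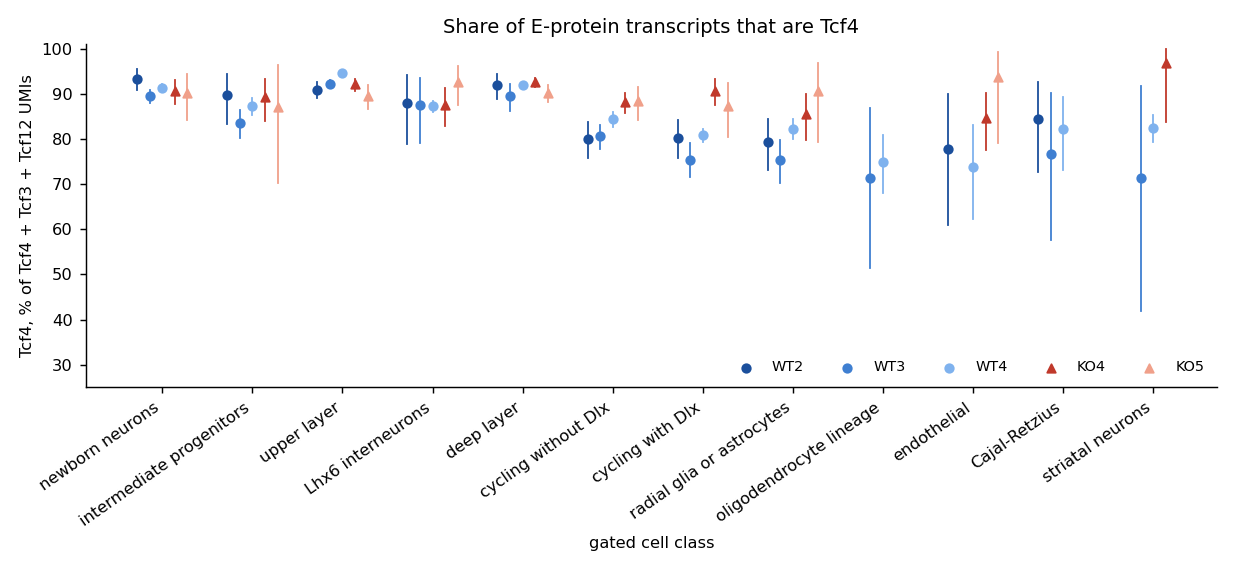
Percent of *Tcf4*, *Tcf3* and *Tcf12* UMIs that are *Tcf4* (y axis, starting at 25%) by gated class (x axis) in WT2, WT3, WT4 (circles), KO4 and KO5 (triangles); vertical lines are exact 95% binomial intervals, which cover counting error only. The share is 92.5% on average in upper layer cells and 78.8% in cycling cells with *Dlx* genes of the 3 WT libraries, while KO4 and KO5 lie at 90.7% and 87.3% in the latter.

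The genes most like each E-protein over the 9 classes that WT2, WT3 and WT4 all hold were taken from 4862 genes outside the marker lists, by the Pearson correlation of log2(level + 1), as a description over points that share libraries. For *Tcf4* they were *Rnf165* (r = 0.98), *Ptbp2* (0.97), *Rtf1* (0.97), *Zfp266* (0.97) and *Amer2* (0.97). *Ptbp2* encodes a splicing regulator of neurons, and *Rnf165* a ubiquitin ligase. All of them had their lowest level in Cajal-Retzius cells, as *Tcf4* did among these 9 classes, which their choice by correlation makes likely. For *Tcf3* they were *Vrk3*, *H2afv*, *Grb10*, *0610037L13Rik* and *Rdx* (r = 0.96 to 0.97), of which *H2afv*, a histone variant, reached 17.3 UMIs per 10000 in cycling cells with *Dlx* genes and 2.11 in Cajal-Retzius cells. For *Tcf12* they were *Cdk12*, *Setd5*, *Tfdp2*, *Gtpbp4* and *Eif2a* (r = 0.94 to 0.96), which were all lowest in Cajal-Retzius cells too. Between the E-proteins r was 0.11 for *Tcf4* with *Tcf3*, and 0.62 for *Tcf12* with each of the others.

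Whether *Tcf4* itself was lower in the KO was asked first. Over all kept cells *Tcf4* was 12.2, 12.6 and 12.2 UMIs per 10000 in WT2, WT3 and WT4, 7.20 in the library labelled WT5, and 9.28 and 7.58 in KO4 and KO5. Of the small libraries, the one labelled WT1 held 4.65, the one labelled KO1 16.7 and KO2 9.12. KO4 and KO5 lay below WT2, WT3 and WT4 but above WT5, so the groups overlap in the larger set. There the log2 difference was -0.33 (SE 0.22, 95% confidence interval -0.83 to 0.17, limma adjusted p = 0.676, 4 against 2 libraries), and the exact permutation p was 0.400, where 0.0667 is the smallest possible. In that set limma called 0 of 8601 genes (0%) over all kept cells and none in any class, with 194 genes at an unadjusted p under 0.05, DESeq2 called 2, and edgeR called 0. Without WT5 the means were 12.3 ± 0.252 (SD, n = 3) and 8.43 ± 1.204 (SD, n = 2), a ratio of 0.684, given without a test because *Tcf4* chose this set.

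The ratio of KO to WT for *Tcf4* ran from 0.568 to 1.01 over the 8 classes that every library of the study's set holds, given without a test. In newborn neurons KO4 held 11.7 and KO5 8.83, a ratio of 0.568 to the mean of WT2, WT3 and WT4. The ratio was 0.595 in intermediate progenitors, 0.662 in upper layer cells, 0.677 in *Lhx6* interneurons, 0.760 in deep layer cells, 0.798 and 0.778 in cycling cells without and with *Dlx* genes, and 1.01 in radial glia or astrocytes. In endothelial cells the order was turned, with 6.77 and 6.63 in KO4 and KO5 and 5.63 and 5.29 in WT2 and WT4. *Tcf4* in KO4, KO5 and WT5 covered a narrower range of levels, from 8.31 to 11.7 in KO4, 6.37 to 8.83 in KO5 and 6.48 to 8.10 in WT5 over the 7 shared classes. The SD of log2(level + 1) over these classes was 0.36 to 0.40 in WT2, WT3 and WT4 (median of 1515 genes 0.15 to 0.22), and 0.10, 0.17 and 0.14 in WT5, KO4 and KO5 (medians 0.14, 0.12 and 0.15). Among the 1515 genes this SD stood at percentiles of 82.0 to 83.4 in WT2, WT3 and WT4, 76.8 in KO4, 44.5 in KO5 and 25.4 in WT5, so that KO4 was close to the former. The narrower range moved with the neuronal transcripts in other cells given above, whose part in it was not tested.

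The difference of the genotype effect between upper layer cells and *Lhx6* interneurons was tested directly. Both classes were weakly separated in WT5, KO4 and KO5. The check genes given above had medians of 1.15, 1.35 and 0.980 in *Lhx6* interneurons and 1.10, 1.21 and 1.07 in upper layer cells of these libraries. For *Tcf4* it was -0.02 (SE 0.14, 95% confidence interval -0.33 to 0.28, limma adjusted p = 0.999) in the larger set, and 0.15 without KO5. For *Tcf12* it was 0.35 (SE 0.18, adjusted p = 0.858) in the study's set, where 30 of 8024 genes (0.374%) were called, and for *Tcf3* 0.04 (SE 0.18, adjusted p = 0.992).

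*Tcf3* and *Tcf12* were then compared, to see whether the other E-proteins changed where *Tcf4* was targeted. Over all kept cells *Tcf3* was 0.698, 0.883 and 0.563 in WT2, WT3 and WT4, 0.340 in WT5, and 0.391 and 0.372 in KO4 and KO5. *Tcf12* was 0.791, 0.893 and 0.833 in WT2, WT3 and WT4, 0.434 in WT5, and 0.561 and 0.479 in KO4 and KO5. Both were lower in KO4 and KO5 than in WT2, WT3 and WT4 without overlap, and both were lowest in WT5 among these libraries. Leaving out WT5 for its *Tcf4* thus also left out the lowest value of both genes. In the study's set the log2 difference was -0.31 for *Tcf3* (SE 0.08, limma adjusted p = 0.143) and -0.28 for *Tcf12* (SE 0.06, adjusted p = 0.109), where 98 of 8555 genes (1.15%) were called, so neither passed the test. Without WT4 both passed, at -0.37 (adjusted p = 0.0216) and -0.28 (adjusted p = 0.0317), beside 1418 genes called. In the larger set the differences were -0.22 (SE 0.12) and -0.19 (SE 0.11), both with an adjusted p of 0.676. Neither gene was higher in KO4 or KO5 than in any of WT2, WT3 and WT4 over all kept cells. A mean over all cells moves with the cell makeup too. With the classes weighted equally in the study's set, both differences were larger and passed the test (-0.43 and -0.33, adjusted p = 0.0191 and 0.0367).

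**Figure D4:**
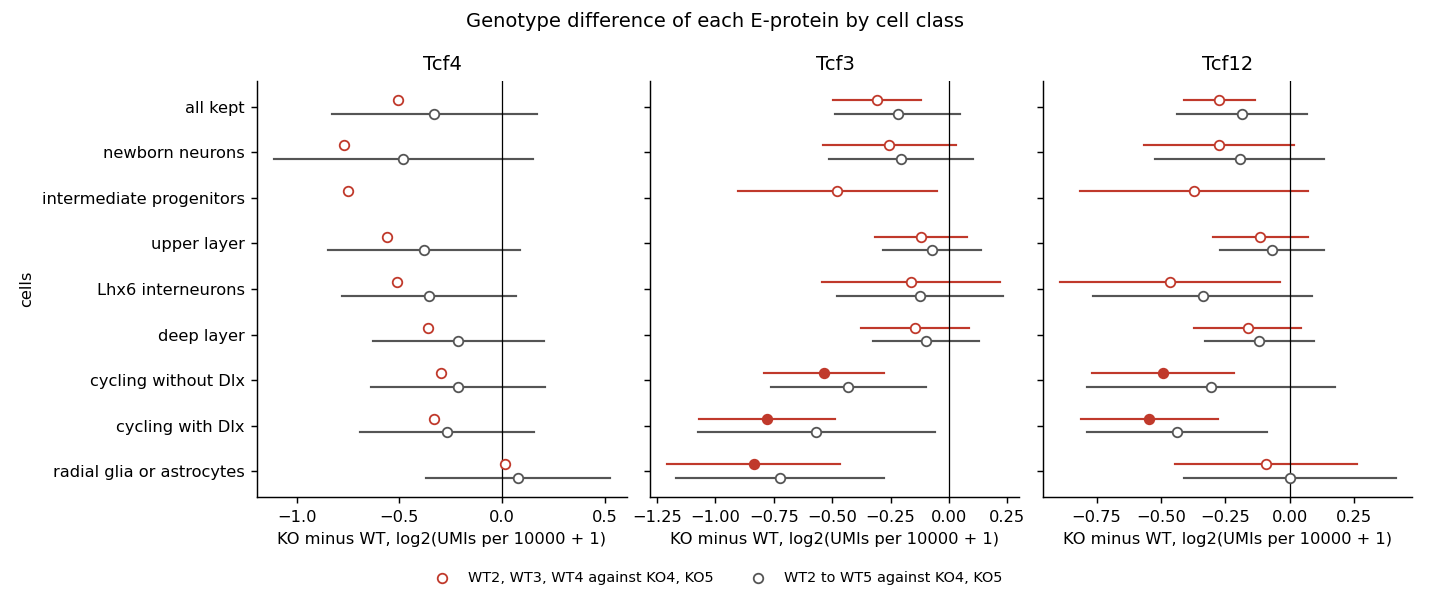
KO minus WT on the log2(UMIs per 10000 + 1) scale (x axes) for each E-protein by cell class (y axis), in the study's set (red) and with WT5 added (gray); lines are 95% confidence intervals of limma, filled points have an adjusted p under 0.05, and *Tcf4* in the study's set is drawn without an interval because it chose the set. Filled points are those of *Tcf3* in 3 progenitor classes, at -0.54, -0.78 and -0.84, and of *Tcf12* in 2, at -0.49 and -0.55, and none remains filled with WT5.

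In neurons and intermediate progenitors neither gene was called. In the study's set upper layer cells gave -0.12 for *Tcf3* and -0.12 for *Tcf12* (limma adjusted p = 0.482 and 0.467), beside 3.79% of all genes called. The share called was 0.916% in deep layer cells, 2.21% in newborn neurons, 1.85% in intermediate progenitors and 0.577% in *Lhx6* interneurons, again with 0 of these 2 genes among them. The adjusted p-values in these 4 classes ran from 0.262 to 0.902, and *Tcf12* in *Lhx6* interneurons had a difference of -0.47 (SE 0.21, 95% confidence interval -0.89 to -0.04).

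In cycling cells and radial glia or astrocytes *Tcf3* was lower in KO4 and KO5. In intermediate progenitors it was 0.960, 1.10 and 1.12 against 0.694 and 0.290, without overlap but from 10 and 1 UMIs in KO4 and KO5 and not past the test (difference -0.48, SE 0.21, limma adjusted p = 0.262). Cycling cells with *Dlx* genes held 1.60, 1.65 and 1.17 UMIs per 10000 in WT2, WT3 and WT4 but 0.378 and 0.490 in KO4 and KO5, a log2 difference of -0.78 (SE 0.14, limma adjusted p = 0.000836). Cycling cells without *Dlx* genes held 1.04, 1.31 and 1.09 against 0.526 and 0.435 (difference -0.54, SE 0.13, adjusted p = 0.00672). Radial glia or astrocytes held 1.26, 1.38 and 1.09 against 0.576 in KO4 and 0 UMIs in the 25 cells of KO5, which allows up to 0.465 per 10000 (difference -0.84, SE 0.18, adjusted p = 0.00363). The groups did not overlap in any of these classes.

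*Tcf12* followed in the cycling classes. With *Dlx* genes it was 1.01, 1.05 and 1.18 in WT2, WT3 and WT4 against 0.409 and 0.438 in KO4 and KO5 (difference -0.55, SE 0.13, limma adjusted p = 0.00724). Without *Dlx* genes it was 1.55, 1.07 and 0.897 against 0.649 and 0.424 (difference -0.49, SE 0.14, adjusted p = 0.0213). In radial glia or astrocytes it did not pass the test, at -0.09 (SE 0.17, adjusted p = 0.816). These fits called many genes, 7.74% of all in cycling cells without *Dlx* genes (5.22% lower in KO), 11.7% in those with *Dlx* genes (7.70% lower) and 4.71% in radial glia or astrocytes (2.93% lower).

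Measures other than genotype moved with these progenitor differences. In WT5, which is labelled WT, *Tcf3* was 0.365 and 0.602 in cycling cells with and without *Dlx* genes and 0.636 in radial glia or astrocytes, and *Tcf12* was 0.542 and 0.291 in the cycling classes, at or near the levels of KO4 and KO5. With WT5 no difference passed the test, and the lowest limma adjusted p of the 5 was 0.468 for *Tcf3* in radial glia or astrocytes (difference -0.72). The small KO2 library held *Tcf3* at 1.17 and 0.987 in the cycling classes and 1.44 in radial glia or astrocytes, within or next to the range of WT2, WT3 and WT4, but from 8, 13 and 4 UMIs. In KO2 *Tcf12* was 0.279 and 0.630, from 2 and 10 UMIs. The library labelled KO1 held *Tcf3* at 0.377 and 0.683 in the cycling classes and 0.705 in radial glia or astrocytes, from 2, 26 and 4 UMIs. The neuronal genes in cycling cells with *Dlx* genes reached 37.2%, 30.8% and 38.7% of the upper layer level in WT2, WT3 and WT4, 34.5% in KO1, and 85.6%, 78.9% and 90.4% in WT5, KO4 and KO5, and their summed level in KO2 was 38.0 UMIs per 10000, beside 26.4 to 36.6 in WT2, WT3 and WT4. The part of these transcripts in the lower *Tcf3* and *Tcf12* was not tested. Leaving out single libraries ended most of these calls. *Tcf3* in cycling cells without *Dlx* genes did not pass without KO4 (-0.58, limma adjusted p = 0.0690) or KO5 (-0.49, 0.267), and in radial glia or astrocytes without WT2 (-0.83, 0.0505) or KO5 (-0.51, 0.182). *Tcf12* in cycling cells without *Dlx* genes did not pass without WT2 (-0.37, limma adjusted p = 0.0993), KO4 (-0.60, 0.0657) or KO5 (-0.39, 0.493), nor in those with *Dlx* genes without KO4 (-0.53, 0.0517) or KO5 (-0.56, 0.0655). *Tcf3* in cycling cells with *Dlx* genes passed when each of the 5 libraries was left out in turn. With no filter on low values, which adds genes to the adjustment, none of the 5 differences passed.

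The partners, inhibitors and cofactors of E-proteins were counted from a list of 51 genes. In the larger set 0 of the 26 to 32 tested passed in any class. In the study's set, over all kept cells, 1 of 30 was higher and 0 lower, beside 1.15% of all genes called (median log2 difference -0.07, all genes -0.05). The share of all genes called in the same fit is given in parentheses. In upper layer cells 4 of 25 were higher and 2 lower (3.79%), in newborn neurons 1 and 2 of 30 (2.21%), in intermediate progenitors 1 and 2 of 30 (1.85%) and in deep layer cells 1 and 1 of 28 (0.916%). The 4 higher in upper layer cells include *Id1*, which passed the filter on low values through KO4 and KO5 alone, so its call does not count as a rise. In cycling cells without *Dlx* genes the counts were 2 and 4 of 31 (7.74%), in those with *Dlx* genes 5 and 1 of 30 (11.7%), in radial glia or astrocytes 4 and 3 of 29 (4.71%), and in *Lhx6* interneurons 0 of 28 (0.577%). In the difference between upper layer cells and *Lhx6* interneurons 1 of 23 was higher, *Cbfa2t3* (0.78), and 2 were lower, *Neurod6* (-1.29) and *Id2* (-1.29), beside 0.374% of all genes called. *Neurod6* is one of the 6 genes that measure neuronal transcripts in other cells, and the part of such transcripts in this call was not tested.

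Among the inhibitors, *Id2* fell in 3 neuron classes of the study's set. Upper layer cells held 13.2, 15.7 and 12.3 UMIs per 10000 of *Id2* in WT2, WT3 and WT4, 8.40 in WT5, and 5.65 and 4.53 in KO4 and KO5. The difference in the study's set was -1.28 (SE 0.15, limma adjusted p = 9.98e-05), and *Id2* also fell in newborn neurons (-1.08) and deep layer cells (-0.98). All 4 WT libraries lay above both KO libraries in upper layer cells, and KO1 held 6.67. In cycling cells with *Dlx* genes *Id2* was higher in KO4 and KO5 (3.91 and 3.24 against 2.05 to 2.57). There neuronal transcripts were higher too. *Id3* fell in cycling cells without *Dlx* genes (-0.90), and *Id1* rose in upper layer cells (0.17), from 0.050, 0.022 and 0.055 to 0.190 and 0.156, and fell in radial glia or astrocytes (-0.64).

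Among the partners, proneural *Neurog2* fell in intermediate progenitors, from 9.26, 9.52 and 7.46 in WT2, WT3 and WT4 to 3.30 and 1.43 in KO4 and KO5 (difference -1.58, SE 0.23, limma adjusted p = 1.31e-07). It also fell in cycling cells without *Dlx* genes (-0.67). In intermediate progenitors the 6 neuronal genes stood at 47.9%, 44.7% and 46.1% of the upper layer level in WT2, WT3 and WT4. In KO4 and KO5 they stood at 75.2% and 92.1%. The class held 18 cells in KO5, 77.8% of them at the lowest marker count allowed, and too few (9) in WT5 to be compared. The part of these differences in the lower *Neurog2* was not tested. *Neurod2*, a factor of differentiating cortical neurons, fell in upper layer cells (-0.60). In cycling cells with *Dlx* genes and in radial glia or astrocytes *Neurod2* (1.34 and 0.97) and *Neurod6* (1.23 and 1.14) were called higher, but both belong to the 6 neuronal genes that measure neuronal transcripts in other cells, so these calls restate that measure. *Neurod6* was 7.61 and 7.13 in these classes of WT5, above KO4 and KO5. *Bhlhe22* rose in both cycling classes and in radial glia or astrocytes (0.57 to 0.82). *Neurod1* fell in newborn neurons (-0.66), and *Olig1* fell in radial glia or astrocytes (-1.44).

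The repressors that passed in the study's set were all lower in KO4 and KO5. In both cycling classes and in radial glia or astrocytes most genes called were lower too, as given above. *Hes5*, an effector of Notch in glia and progenitors, fell in radial glia or astrocytes from 6.87, 3.94 and 7.61 in WT2, WT3 and WT4 to 2.25 and 1.07 in KO4 and KO5 (-1.42, limma adjusted p = 8.09e-05), with 0.898 in WT5. It also fell in cycling cells without *Dlx* genes (-0.62). *Hes6* fell in intermediate progenitors (-0.93) and in cycling cells without *Dlx* genes (-0.48), and *Helt* fell in cycling cells with *Dlx* genes (-0.47). Over all kept cells *Hes5* and *Hes6* were 0.271 and 1.05 in WT5, below KO4 (0.361 and 1.23) and KO5 (0.357 and 1.28). In the small KO2 library *Hes5* was 0.878, above WT2, WT3 and WT4, and *Hes6* was 1.84, within their range. In KO1 they were 0.062 and 0.297.

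Among the cofactors, *Runx1t1*, which encodes a corepressor that binds E-proteins, was higher in every class but *Lhx6* interneurons. Over all kept cells it was 1.63, 1.72 and 2.26 UMIs per 10000 in WT2, WT3 and WT4, 4.97 and 4.43 in KO4 and KO5 (difference 0.99, SE 0.12, limma adjusted p = 0.00852), but 6.15 in WT5 and 1.55 and 1.68 in KO1 and KO2. The libraries with high *Runx1t1* were those with high neuronal transcripts in other cells, whose part in its level was not tested. *Lmo3* rose in upper layer cells (0.51). The calmodulins, which bind the bHLH region of E-proteins, did not pass in any class, and *Calm2* over all kept cells stood at 19.5, 19.6 and 13.9 UMIs per 10000 in WT2, WT3 and WT4, against 14.8 and 14.9 in KO4 and KO5.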

How the data were processed

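Single-cell RNA was measured in 9 neocortex libraries, 1 per animal. The submitters' processing notes name Cell Ranger 2.1.0, Seurat 2.3.4 and R 3.6.0. The authors deposited whole UMI counts for WT4, WT5, KO4 and KO5, and for the other libraries (WT1, WT2 and WT3 with KO1 and KO2) the natural log of 1 + UMIs per 10000, from which whole UMIs were recovered for 100% of values within 1e-06. Libraries hold 348105 to 29767293 UMIs. A pair of libraries shared at most 46 barcodes.

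Cells with 1000 to 5000 genes, 1800 to 10000 UMIs, under 6% mitochondrial and at most 1% hemoglobin UMIs were kept. No doublet caller was run. Classes needed 10 cells. A level is the mean over cells of UMIs per 10000. Genes at 0.1 or more in 2 libraries were tested on log2(level + 1) with limma 3.58.1 (trend, robust, Benjamini-Hochberg, 0.05), in R 4.3.3, and single values with exact permutation tests. The difference between upper layer cells and *Lhx6* interneurons was fitted without the trend, on genes at 0.1 or more in 2 libraries in both classes. The scripts were tested on simulated data. Intervals cover counting error only. Alternatives were edgeR 4.0.16, DESeq2 1.42.0, other filters, a pseudocount of 0.1, thinning, gates and libraries. Gene positions are from GENCODE.

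The genes, lists and tests were chosen with earlier results of these data known. Of the list of partners, inhibitors, repressors, cofactors and calmodulins, genes called in a fit were named, otherwise the 3 with the highest level per group, and for each E-protein the 5 genes most like it. The values of 1 gene counted in the list are not reported here.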

Additional observations from a re-analysis of the deposited data

Results flagged for a closer look

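Of 36 groups of 4 or more libraries tested with Dixon's criterion, 3 held a library far from the others, and chance flags about 1 in 20 groups. *Tcf4* in radial glia or astrocytes was 16.5 UMIs per 10000 in the library labelled KO1, against 7.51 to 8.55 in the other libraries labelled KO. *Tcf3* was 0.823 over all kept cells and 1.17 in cycling cells with *Dlx* genes in KO2, against 0.372 to 0.403 and 0.377 to 0.490 in the other libraries labelled KO, and the second value rests on 8 UMIs.

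Cells with more than 1% hemoglobin UMIs, which no main comparison uses, held *Tcf4* at 7.01 UMIs per 10000 in WT5, 8.80 in KO4 and 7.74 in KO5, far above what 3 UMIs would give. The neuronal genes in these cells stood at 90.9%, 80.8% and 96.3% of the upper layer level of the same library.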

How the results depend on the processing

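Of the alternative values of the main results, 288 kept their direction and side of the threshold or stayed within the spread, 48 lost a call or fell in number, 18 gained one, 11 moved and 18 reversed. The cause of these shifts was not tested, except that fewer libraries or more genes tested follow from the alternative itself.

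With 1 library left out at a time, in the study's set, *Tcf4* ran from -0.64 to -0.37 over all kept cells and from -0.76 to -0.35 in upper layer cells, *Tcf3* from -0.37 to -0.24 and *Tcf12* from -0.31 to -0.24 over all kept cells. *Tcf3* ran from -0.58 to -0.48 in cycling cells without *Dlx* genes and from -1.16 to -0.51 in radial glia or astrocytes, and *Tcf12* from -0.60 to -0.37 and from -0.57 to -0.51 in cycling cells without and with *Dlx* genes and from -0.20 to 0.018 in radial glia or astrocytes. The difference between upper layer cells and *Lhx6* interneurons ran from -0.23 to 0.13 for *Tcf4* and from -0.15 to 0.24 for *Tcf3*. In the larger set it ran from -0.20 to 0.15 and from -0.15 to 0.25, *Tcf4* and *Tcf12* in radial glia or astrocytes from -0.0068 to 0.16 and from -0.11 to 0.11, and *Tcf3* in *Lhx6* interneurons from -0.28 to 0.036. Genes called ran from 0 (without WT2) to 1418 (without WT4) over all kept cells and from 44 (without KO5) to 739 (without WT4) in upper layer cells of the study's set, and from 0 to 98 and 0 to 316 (both without WT5) in the larger set.

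With no filter on low values none of the 5 progenitor calls passed (*Tcf3* -0.54, -0.78 and -0.84, *Tcf12* -0.49 and -0.55), and 38 genes were called over all kept cells and 0 in upper layer cells of the study's set. With 1 more marker needed, *Tcf3* did not pass in cycling cells without *Dlx* genes (-0.43) and radial glia or astrocytes (-0.69), nor *Tcf12* in the former (-0.46). *Tcf12* turned to 0.035 in radial glia or astrocytes and, against other classes, to -0.012 in cycling cells without *Dlx* genes, and *Tcf3* to -0.086 in endothelial cells and -0.30 in microglia. Genes called in upper layer cells were 1 in the larger and 176 in the study's set. With cells thinned, *Tcf12* in cycling cells without *Dlx* genes did not pass (-0.56), *Tcf12* in radial glia or astrocytes of the larger set was -0.24, and 1 gene was called in upper layer cells of that set. Against other classes *Tcf12* then turned to -0.034 in cycling cells without *Dlx* genes, 0.045 in microglia and -0.080 in oligodendrocyte lineage cells, and *Tcf3* to -0.044 in endothelial cells, -0.018 in microglia, 0.011 in newborn neurons and -0.31 in oligodendrocyte lineage cells.

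DESeq2 gave *Tcf12* at -1.23 and -0.998 in cycling cells with and without *Dlx* genes and *Tcf3* at -0.88 in the latter, none past the threshold, *Tcf4* at -0.37 over all kept cells, *Tcf12* at 0.015 in upper layer cells and -0.079 in radial glia or astrocytes of the larger set, and 2, 309, 2 and 197 genes called over all kept cells and in upper layer cells of the larger and the study's set in turn. edgeR with TMM gave *Tcf3* at -0.85 in cycling cells without *Dlx* genes and -1.20 in radial glia or astrocytes, not past the threshold, *Tcf4* at -0.37, and *Tcf12* at 0.053 and -0.041 in upper layer cells and radial glia or astrocytes of the larger set. With RLE these were -1.19 for *Tcf3* in radial glia or astrocytes, -0.37 for *Tcf4*, and 0.044 and -0.049 for *Tcf12*. With hemoglobin cells kept *Tcf12* in radial glia or astrocytes of the larger set was -0.020. With classes weighted equally *Tcf3* (-0.43) and *Tcf12* (-0.33) passed over all kept cells, beside 385 genes called. In WT2, WT3 and WT4 alone *Tcf12* was lower in upper layer than in cycling cells without *Dlx* genes (-0.40).

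With all libraries as labelled *Tcf4* turned to 0.14 over all kept cells and 0.28 in deep layer cells and was -0.020 in upper layer cells, *Tcf12* turned to 0.14 in upper layer cells and 0.12 in radial glia or astrocytes, *Tcf3* was -0.43, -0.28 and -0.37 in cycling cells with and without *Dlx* genes and radial glia or astrocytes, and *Tcf12* -0.40 and -0.27 in the former 2, with none past the threshold and 0 genes called over all kept cells and in upper layer cells.

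The replicate numbers were not taken to pair the libraries, since the labels name no shared litter or day and not every same-numbered pair correlated over 0.1. Deviations over 1463 genes correlated at -0.01, 0.28, 0.20 and 0.57 for numbers 1, 2, 4 and 5, and WT5 correlated best with KO4 (0.59). With a replicate block, *Tcf4* was -0.23 over all kept cells with 0 genes called, *Tcf3* was -0.22, -0.26 and -0.34 in cycling cells without and with *Dlx* genes and radial glia or astrocytes, and *Tcf12* was -0.23, -0.46 and 0.067, none past the threshold. In upper layer cells the replicate block gave -0.25 for *Tcf4*, 0.072 for *Tcf3* and 0.019 for *Tcf12* with 5 genes called, and in deep layer cells 0.011 for *Tcf3*.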
